A study of Mus musculus with 1600 samples.

Results

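Sterol and fatty acid synthesis was followed across single glomerular cells through 8 genes, Srebf2, Insig1, Hmgcs1, Idi1, Fdft1, Sqle, Fasn and Scd2. They were taken by name, not by a measured value, and all 8 were found among the 45792 gene identifiers of the tables. Glomeruli came from C57BL/6 mice without Nos3 (genotype Nos3-/-), the gene of endothelial nitric oxide synthase, and controls carried this deletion too. Diabetes mice had received streptozotocin, which is toxic to insulin-producing cells, once a day for 5 days from the age of 8 weeks, at a daily dose of 50 µg/g. Control mice had received citrate vehicle, and all were 10 weeks old when the cells were taken. Cells of 3 mice were pooled per condition in each of 2 experiments, so there were 4 pools, here called control 1, control 2, diabetes 1 and diabetes 2 after the experiment. The pool is the replicate, with 2 pools per condition, and per-pool values below stand in that order. The mice in a pool cannot be told apart, and the shared deletion means that no values from mice with intact Nos3 enter.

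Cells make cholesterol and fatty acids from acetyl-CoA. The sterol arm runs through mevalonate and isoprenoid units to squalene and the sterol ring, and the other arm builds saturated fatty acids that desaturases then modify. SREBP transcription factors switch on both sets of genes when membrane sterols run low, and Insig proteins hold their precursors in the endoplasmic reticulum when sterols are plentiful. The glomerulus holds fenestrated endothelial cells, mesangial cells that support the capillaries, and podocytes, whose large foot processes make them rich in membrane.

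The wells used were those in which 1 cell had been imaged and that passed the filters, 639 in all: 120 in control 1, 203 in control 2, 128 in diabetes 1 and 188 in diabetes 2. Experiment 2 was sequenced more deeply, with median reads per well of 219072 and 176715 against 32222 and 43577 in experiment 1. Wells were put into classes by marker genes after clustering without any gene of the pathway lists. Endothelial-like wells numbered 46, 81, 74 and 98 in the 4 pools, mesangial-like wells 29, 68, 5 and 21, podocyte-like wells 23, 31, 1 and 17, and immune-like wells 5, 5, 28 and 43. Levels are given as CPM, the reads of a gene per 1000000 reads of the summed wells of a pool, and genes are not compared with each other by level because CPM is not per length. The 12 podocyte markers together took 23104 to 36811 CPM in podocyte-like wells and 964 to 1935 in endothelial-like wells. The 6 adipocyte markers were at or near 0, at no more than 1.04 CPM in any pool's kept wells. The endothelial-like class joined 3 clusters that the conditions filled unequally: the one led by Ly6c1, Ly6a, Gpihbp1 and Fabp4 held 7 and 16 of the endothelial-like wells of control 1 and control 2 but 23 and 62 of those of diabetes 1 and diabetes 2, and the part of this in the endothelial-like comparisons was not tested. Wells imaged with 0 cells (empty wells) also held reads, and their values stand beside those of wells with a cell as the background. Xist read 356 and 442 CPM in the control pools against 1.42 and 1.40 in the diabetes pools, and 4 Y-linked genes read 0.279 and 0.605 against 154 and 160. Sex-linked expression therefore differed between the conditions, although the design text calls the mice sex-matched, and condition and this difference cannot be told apart in any comparison below.

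Scd2, which makes monounsaturated fatty acids, was the member with the clearest place among the cell classes: its level was highest in podocyte-like wells in 4 of 4 pools. In diabetes 1 this rests on 1 podocyte-like well with 4 Scd2 reads. At a finer clustering, or with classes set by marker share, podocyte-like wells were not the highest in diabetes 1. The other 7 members were sparse, with reads of a gene often resting on a few wells. Their shares of wells with a read, at equal depth, lay below those of empty wells more often than above them. In endothelial-like wells, 2, 2, 4 and 3 of all 8 members lay above and 6, 6, 4 and 5 below. In mesangial-like wells 4, 1, 1 and 2 lay above and 4, 7, 5 and 5 below. In podocyte-like and immune-like wells too, no pool had more members above than below. The empty-well shares of control 1 and diabetes 1 rest on few wells. Between diabetes and control pools, 0 of the 8 members passed the test of edgeR (quasi-likelihood, Benjamini-Hochberg adjusted p under 0.05) in any of the 4 fits, which were all kept wells, endothelial-like, mesangial-like and immune-like wells. Among all genes, the percentage called was 0.0783% of 15330 in all kept wells, 0.00799% of 12515 in endothelial-like wells, 0.139% of 10048 in mesangial-like wells and 0.0480% of 8338 in immune-like wells. At these low shares a count of 0 among 8 genes does not set the members apart from other genes. At an unadjusted edgeR p under 0.05 there were 2 members in all kept wells (Sqle and Scd2), 1 in mesangial-like wells (Sqle) and 0 in the other fits. Of all genes tested, 7.36% lay under that p in all kept wells, 4.70% in endothelial-like, 3.03% in mesangial-like and 2.79% in immune-like wells. DESeq2 called 1 member, Sqle in all kept wells, where it called 590 of 15328 genes. It called 0 members in the other fits, beside 97 of 11722 genes in endothelial-like, 20 of 7515 in mesangial-like and 3 of 20568 in immune-like wells.

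**Figure D1:**
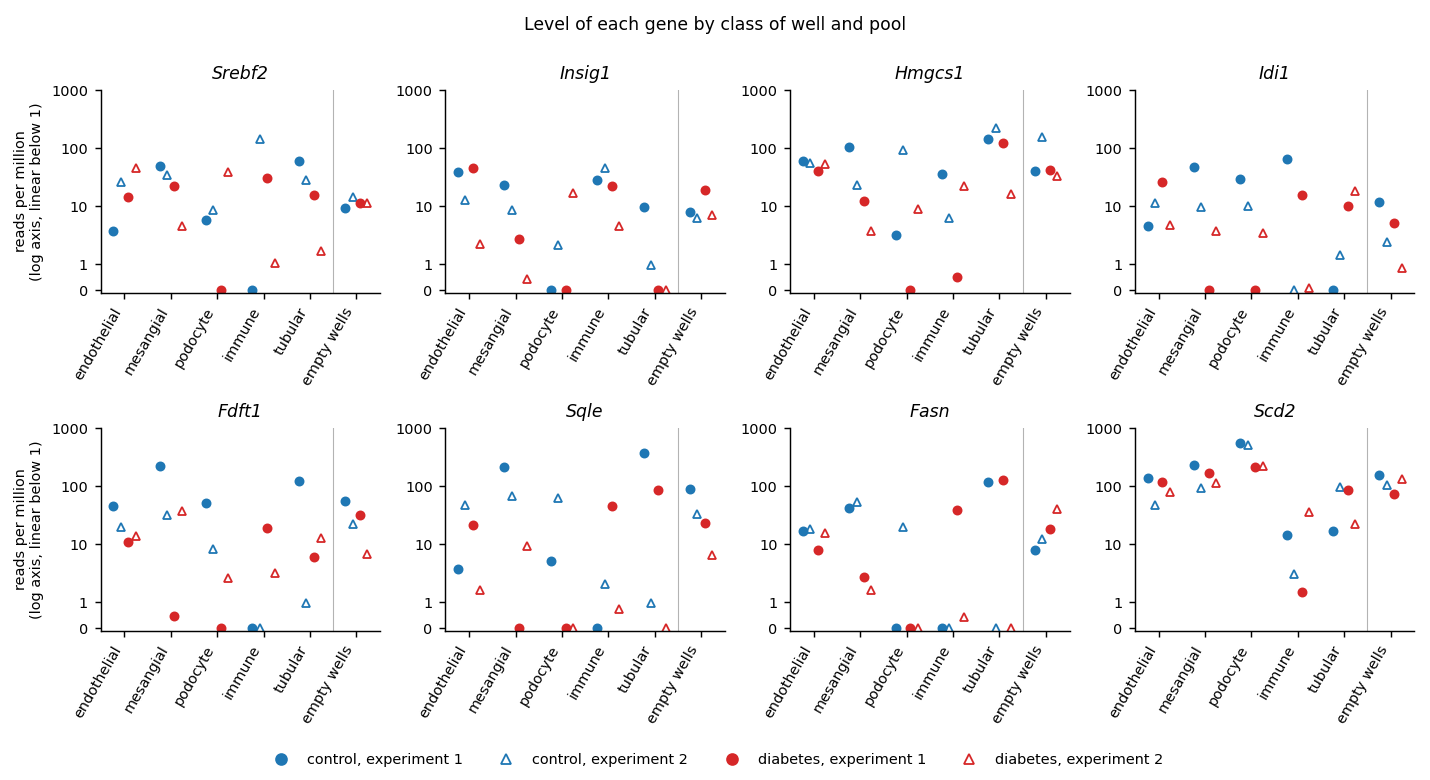
Level of each of the 8 genes (CPM of the summed wells, on a log axis that is linear below 1) by class of well, with 1 point per pool; filled circles are experiment 1, open triangles experiment 2, blue is control and red is diabetes, and wells imaged with 0 cells stand to the right of the line. Scd2 in podocyte-like wells sits between 216 and 562, above the same pool's point in every other class drawn, while the points of the other genes spread over 10-fold or more within most classes.

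Scd2 lies on chromosome 19 (GRCm38, 44293674 to 44306864, plus strand). In podocyte-like wells it read 562, 522, 216 and 226 CPM. In mesangial-like wells it read 235, 94.3, 167 and 113, and in endothelial-like wells 140, 47.1, 117 and 79.3. Podocyte-like wells were the highest in each pool, mesangial-like wells were above endothelial-like wells in each pool, and the podocyte-like range did not overlap the endothelial-like one. Over the 4 pools the mean was 381 ± 186 (SD, n = 4) in podocyte-like, 152 ± 63.4 in mesangial-like and 95.9 ± 41.1 in endothelial-like wells, so the mesangial-like and endothelial-like means differ by less than the SD of the mesangial-like values. In the mesangial-like wells of diabetes 1, 1 well held 96.7% of the reads, and in those of diabetes 2, 1 well held 44.5%. Without the highest well of each class, mesangial-like wells were above endothelial-like wells in 2 of 4 pools. Beside podocyte-like, mesangial-like and endothelial-like wells, immune-like wells were lowest, at 14.2, 3.12, 1.52 and 36.2. Within a pool, podocyte-like wells held 4.00, 11.1, 1.85 and 2.86 times the endothelial-like level. These levels are a description with no test, since the classes come from the same wells.

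The value of diabetes 1 rests on 4 reads in 1 podocyte-like well. Without the highest well of each class, podocyte-like wells still read highest in the other 3 pools, in which the highest well held 24.4%, 17.4% and 31.4% of the podocyte-like Scd2 reads. At the finer clustering resolution of 1.2, podocyte-like wells read 524, 469, 96.6 and 267, below endothelial-like (114) and mesangial-like wells (167) in diabetes 1. The median podocyte-like well had 3.36, 1.91, 2.16 and 1.04 Scd2 reads per 10000, the median endothelial-like well 0 in every pool, and the median empty well 0, 0.532, 0 and 0.154. When wells were put into classes by their share of marker reads instead, podocyte-like wells read 528, 527, 83.6 and 154, and were below endothelial-like wells (116) and tubular-like wells (85.6) in diabetes 1, where 2 wells carried the label. By that share mesangial-like wells read 10.2 in diabetes 1, also below the endothelial-like wells.

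**Figure D2:**
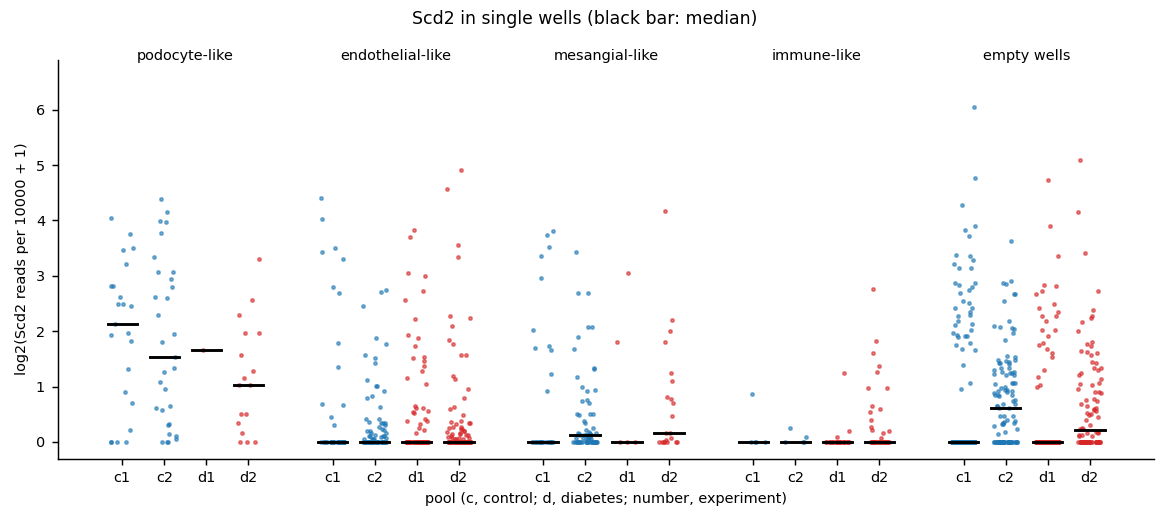
Scd2 in single wells as log2 of reads per 10000 plus 1, by class and pool (c1, control 1; c2, control 2; d1, diabetes 1; d2, diabetes 2); each dot is 1 well and each black bar a median. The podocyte-like medians stand above 0 in every pool (3.36, 1.91, 2.16 and 1.04 reads per 10000 before the log), and the endothelial-like medians are at 0; some empty wells lie above the highest podocyte-like well of their pool in control 1, diabetes 1 and diabetes 2.

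To set aside depth, each well was thinned to 10000 reads, and shallower wells were left out. At least 1 Scd2 read was then found in 77.3% of 22 podocyte-like wells of control 1 (exact Clopper-Pearson 95% interval 54.6 to 92.2%), 67.7% of 31 in control 2 (48.6 to 83.3%) and 58.8% of 17 in diabetes 2 (32.9 to 81.6%). Endothelial-like wells gave 25.6%, 18.5%, 32.4% and 19.4% in the 4 pools. The podocyte-like and endothelial-like intervals did not overlap in any of these 3 pools. Wells imaged with 0 cells gave 52.9% of 17, 42.9% of 105, 14.3% of 14 and 41.3% of 92. In control 1 only 17 of 195 empty wells reached 10000 reads, and in diabetes 1 only 14 of 184. The thinned empty-well shares of these 2 pools, here and below, therefore rest on a small set of the deepest empty wells. The endothelial-like share lay below that of empty wells in all pools except diabetes 1. The podocyte-like share lay above the empty-well share in the 3 pools with more than 1 podocyte-like well. The podocyte-like intervals overlapped those of the empty wells (27.8 to 77%, 33.2 to 52.9% and 31.1 to 52.1%). Podocyte markers also read 8396, 7012, 1190 and 2734 CPM in empty wells, and their part in the Scd2 reads there was not tested. The intervals cover counting error only, and wells of a pool are not replicates. At unthinned depth the podocyte-like shares were 82.6%, 90.3% and 82.4%.

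**Figure D3:**
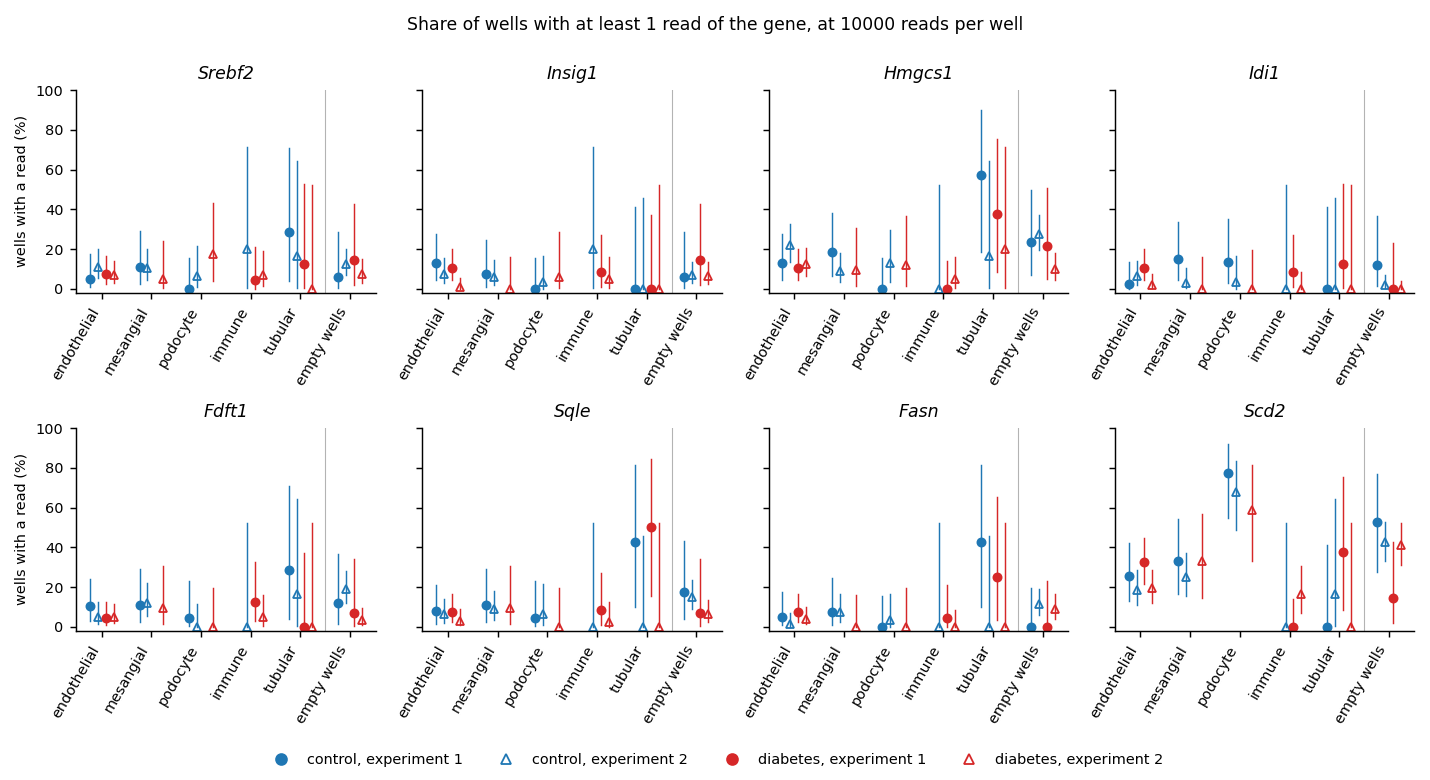
Percentage of wells with at least 1 read of each gene after thinning to 10000 reads per well, by class, with exact 95% binomial intervals; classes of fewer than 5 thinned wells in a pool are not drawn, and wells imaged with 0 cells stand to the right of the line. Scd2 lies between 58.8% and 77.3% in podocyte-like wells. In endothelial-like wells it is 51.6, 49.2 and 39.4 percentage points lower in control 1, control 2 and diabetes 2. The other 7 genes stay at 22.2% or less in endothelial-like wells, but Hmgcs1 reaches a higher share in tubular-like wells of control 1.

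In the sum of all kept wells, Scd2 read 249 and 140 CPM in the control pools against 80.1 and 84.1 in the diabetes pools. The groups did not overlap, and the fitted log2 fold change was -1.13 (SE 0.37) with an edgeR p of 0.0213 and an adjusted p of 0.615, so it did not pass. Podocyte-like wells supplied 58.1% and 60.3% of the Scd2 reads of the control pools, but 0.743% and 18.8% of those of the diabetes pools. They supplied 25.7%, 16.2%, 0.276% and 6.97% of the reads of all genes. In a sum of many cells, fewer cells of a type and less RNA per cell cannot be told apart. With podocyte-like wells left out, which was chosen after seeing the data, Scd2 read 140, 66.6, 79.7 and 73.5 CPM, and its log2 fold change was -0.28 (edgeR adjusted p = 1.00). Within classes the fitted value was 0.27 (SE 0.51) in endothelial-like and -0.07 (SE 0.94) in mesangial-like wells, neither of which passed (adjusted p = 1.00 in both). Within podocyte-like wells the diabetes pool read 0.384 and 0.434 of the control pool in experiments 1 and 2. No test was made there, because diabetes 1 had 1 such well.

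Fasn (chromosome 11, 120805846 to 120824547, minus strand) encodes fatty acid synthase, the enzyme that builds palmitate. Over all kept wells it read 25.4, 32.8, 32.2 and 9.03 CPM. Control 1, control 2 and diabetes 1 were alike and diabetes 2 was low, although 65.3% of the reads of that pool came from 1 endothelial-like well. In endothelial-like wells it read 16.7, 18, 8.09 and 15.8, and both diabetes values lay below both control values. With the TMM scaling of the fit, diabetes 2 lay above control 1, so the groups overlapped. The fitted log2 fold change there was -0.59 (SE 1.32). The highest endothelial-like well held 70.4%, 53.1%, 37.0% and 68.1% of these reads. In mesangial-like wells it read 42.0 and 53.8 in control and 2.76 and 1.6 in diabetes pools. The diabetes values there rest on 1 and 9 reads, and the fitted log2 fold change of -4.51 had a standard error of 2.96 (edgeR adjusted p = 1.00). After thinning, Fasn was found in 1.23% to 7.35% of endothelial-like wells, and in empty wells in 0%, 11.4%, 0% and 8.70%.

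Srebf2 (chromosome 15, 82147181 to 82205379, plus strand) encodes the SREBP factor that acts mainly on sterol genes. Over all kept wells its level was alike in the pools, at 20.8, 28.1, 22.2 and 28.8 CPM, with a fitted log2 fold change of 0.12 (SE 0.60). In endothelial-like wells it read 3.71 and 25.9 in control and 14.2 and 45.8 in diabetes pools, higher with diabetes within each experiment, although the control 1 value rests on 6 reads. In mesangial-like wells it read 48.6 and 34.7 in control and 22.1 and 4.61 in diabetes pools, lower with diabetes within each experiment. The difference between these effects was -3.41 on the log2 scale (SE 3.03, edgeR p = 0.260, adjusted p = 1.00) and did not pass. In each diabetes pool, 1 mesangial-like well held all Srebf2 reads of that class. After thinning, 8.41%, 9.85%, 7.89% and 7.45% of all kept wells had a Srebf2 read, against 5.88%, 12.4%, 14.3% and 7.61% of empty wells.

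Insig1 (chromosome 5, 28071363 to 28078662, plus strand) encodes the endoplasmic reticulum protein that retains SREBP precursors, and is itself a target of SREBP. Endothelial-like wells read 39.6, 13, 44.8 and 2.25 CPM. The 2 pools of experiment 1 were high and diabetes 2 was low, so the spread between experiments was wider than the gap between conditions. Mesangial-like wells read 22.9, 8.45, 2.76 and 0.443, with both diabetes values, which rest on 1 and 2.50 reads, below both control values. The fitted log2 fold change was -1.15 (SE 1.24) in endothelial-like and -3.77 (SE 2.77) in mesangial-like wells, both with an edgeR adjusted p of 1.00. Immune-like wells read 28.5, 45.3, 22 and 4.55. The highest immune-like well held 100%, 100%, 48.3% and 80.6% of these reads, and the control 1 value rests on 4 reads. After thinning, 6.54%, 6.40%, 9.65% and 2.13% of all kept wells had an Insig1 read, and 5.88%, 6.67%, 14.3% and 6.52% of empty wells.

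Hmgcs1 (chromosome 13, 119690379 to 119708260, plus strand) encodes the cytosolic HMG-CoA synthase, an early enzyme of the mevalonate route. In endothelial-like wells it read 60, 55.9, 41.2 and 53.9 CPM. With the TMM scaling of the fit these values were 55.2, 59.9, 38.9 and 58.1, and the groups overlapped. The fitted log2 fold change there was -0.27 (SE 0.63). Mesangial-like wells read 105 and 23.4 in control and 12.4 and 3.72 in diabetes pools, without overlap but with a wide error (log2 fold change -2.88, SE 2.34, edgeR adjusted p = 1.00). Tubular-like wells, of which each pool had 5 to 10, read 143, 226, 121 and 16.1, and 57.1%, 16.7%, 37.5% and 20% of their 5 to 8 thinned wells had a read. The highest tubular-like well held 38.3%, 98.7%, 59.6% and 100% of their Hmgcs1 reads. Over all kept wells the control pools read 64.2 and 63.0 and the diabetes pools 28.9 and 37.9, which did not overlap, with a log2 fold change of -0.88 (SE 0.45, edgeR p = 0.0948, adjusted p = 0.782). After thinning, endothelial-like wells with a read made up 12.8%, 22.2%, 10.3% and 12.2%, and empty wells 23.5%, 27.6%, 21.4% and 9.78%.

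Start-site sequences were at hand from RefSeq (GRCm38.p6) for 5 of the 8 members, Fasn, Hmgcs1, Insig1, Idi1 and Srebf2, each from 250 bases before to 50 bases after the RefSeq start. Both strands were searched for 4 motifs. The sterol regulatory element-like motif TCACNCCAC was found in 1 of the 5 (Hmgcs1) and in 1.24% of 32851 windows of that length. The E-box CACGTG, which basic helix-loop-helix factors such as SREBPs can bind, was found in 1 of the 5 (Insig1) and in 7.15% of windows. The NF-Y motif CCAAT was found in 5 of the 5 and in 37.4% of windows. The GC box GGGCGG was found in 4 of the 5, all but Fasn, and in 35.7% of windows. No motif overlapped another in the capitals below. Upstream bases of Hmgcs1 (chr13:119690101-119690350, plus strand, 250 bases) and Insig1 (chr5:28071162-28071362, plus strand, 201 bases, ending where the GENCODE gene begins) are shown because they hold the 2 rarer motifs, which stand in capitals.
Hmgcs1: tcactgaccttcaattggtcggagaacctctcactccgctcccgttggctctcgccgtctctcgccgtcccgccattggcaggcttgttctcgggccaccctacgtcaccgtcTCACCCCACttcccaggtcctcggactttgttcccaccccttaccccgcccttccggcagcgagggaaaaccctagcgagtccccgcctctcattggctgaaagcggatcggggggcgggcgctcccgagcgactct
Insig1: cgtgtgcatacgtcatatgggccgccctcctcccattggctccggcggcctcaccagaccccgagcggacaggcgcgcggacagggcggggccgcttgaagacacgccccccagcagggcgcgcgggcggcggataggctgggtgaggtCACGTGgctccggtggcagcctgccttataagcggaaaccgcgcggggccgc
A match is a description of the letters only. The Hmgcs1 match begins at base -137 and the Insig1 match at base -101 from the RefSeq start. No binding or accessibility was measured.

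Idi1 (chromosome 13, 8885501 to 8892451, plus strand) encodes the isomerase that interconverts the 5-carbon isoprenoid units. Endothelial-like wells read 4.64, 11.2, 26.4 and 4.79 CPM, and mesangial-like wells 47.3, 9.86, 0 and 3.81. The groups overlapped in endothelial-like wells, and both diabetes values lay below both control values in mesangial-like wells. With 5 mesangial-like wells in diabetes 1, a count of 0 allows up to 8.28 CPM there. Over all kept wells the values were 26, 10.3, 22.9 and 4.11, lower in experiment 2 than in experiment 1 in both conditions. After thinning, 10.3%, 4.43%, 9.65% and 1.06% of all kept wells had an Idi1 read, against 11.8%, 1.90%, 0% and 0% of empty wells.

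Fdft1 (chromosome 14, 63145150 to 63179578, minus strand) encodes squalene synthase, the first enzyme committed to sterols. Over all kept wells it read 95.2, 20.7, 12.1 and 16.6 CPM. Control 1 stood far above the other 3 pools, and 27.3% of its Fdft1 reads came from 1 mesangial-like well. Mesangial-like wells read 219, 31.7, 0.469 and 37.6, and endothelial-like wells 46.1, 20.2, 10.8 and 13.8. The endothelial-like groups did not overlap, yet the fitted log2 fold change of -1.29 had a standard error of 1.13 (edgeR adjusted p = 1.00). After thinning, 10.3%, 6.9%, 6.14% and 5.32% of all kept wells had a Fdft1 read, against 11.8%, 19%, 7.14% and 3.26% of empty wells.

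Sqle (chromosome 15, 59315077 to 59331192, plus strand) encodes squalene epoxidase, a rate-limiting enzyme of the sterol arm. It had the largest fitted difference between the conditions of the 8 members in all kept wells. Its level was 87.3 and 51.1 CPM in the control pools and 29.3 and 2.42 in the diabetes pools, which did not overlap. The log2 fold change was -2.92 (SE 0.81) with an edgeR p of 0.00963 and an adjusted p of 0.483, so it did not pass. DESeq2 gave the same log2 fold change with an adjusted p of 0.00259. Without diabetes 1 the edgeR log2 fold change was -4.66 with an adjusted p of 0.00278, and without diabetes 2 it was -1.27 with an adjusted p of 0.978. It was -1.84 without control 1, also not called. Over the 14 alternatives the adjusted p ranged from 0.00259 to 0.978. The reads of Sqle lay in few wells: 2 wells held at least 50% of them in control 1, control 2 and diabetes 1, and 1 well held 55.4% of the 92 reads of diabetes 2. Wells imaged with 0 cells read 90.0, 32.8, 23.2 and 6.60 CPM, in the same order from pool to pool as the wells with a cell.

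By class, Sqle was spread unevenly. Mesangial-like wells read 212 and 68.2 CPM in the control pools against 0 and 9.40 in the diabetes pools, and the log2 fold change was -4.75 (SE 2.04, edgeR p = 0.0200, adjusted p = 1.00). With 1 pool left out at a time this value ranged from -12.53, without diabetes 2, to -3.60, without control 1. A single well held 56.8% and 55.9% of these control reads and 96.2% of the diabetes 2 reads. Endothelial-like wells read 3.71, 48.2, 21.6 and 1.63, higher with diabetes in experiment 1 and lower in experiment 2. Tubular-like wells read 374 and 0.960 in control and 87.6 and 0 in diabetes pools. Of these reads, 1 well held 83.4% in control 1, 100% in control 2 and 58.8% in diabetes 1. After thinning, 11.2%, 6.40%, 10.5% and 3.19% of all kept wells had a Sqle read, against 17.6%, 15.2%, 7.14% and 6.52% of empty wells. Over the 8 members, the endothelial-like share exceeded the empty-well share for 2, 2, 4 and 3 of them in the 4 pools.

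**Figure D4:**
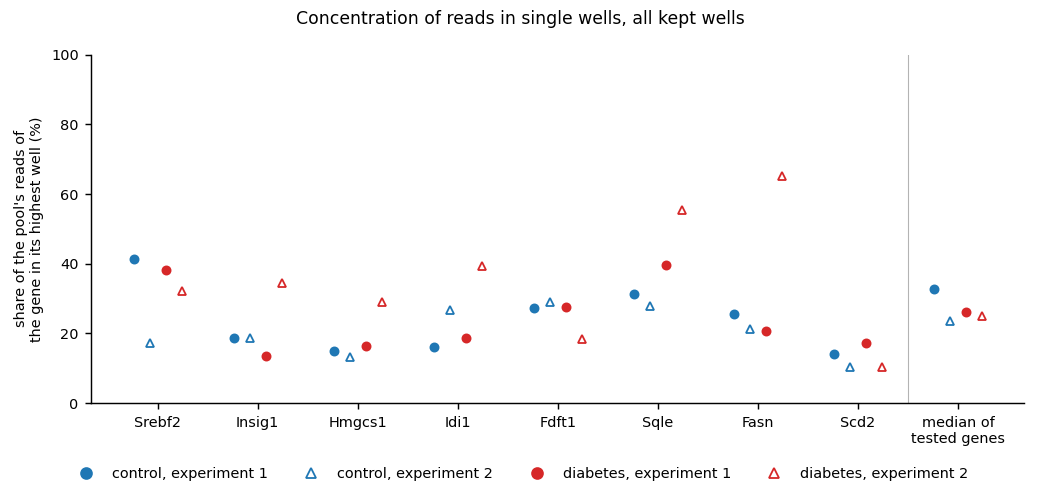
Share of a pool's reads of each gene (%) that came from the single highest well, over all kept wells, beside the median of the tested genes; colours and symbols mark condition and experiment. Scd2 lies at 10.5% to 17.3%, under the median of tested genes in every pool (23.5% to 32.8%), while Sqle reaches 55.4% and Fasn 65.3% in diabetes 2.

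The members did not peak in the same wells. In control 1, control 2 and diabetes 2 the 8 members had 8 different highest wells, and in diabetes 1 they had 7, with Sqle and Srebf2 sharing an immune-like well. The highest wells were of several classes: for Sqle they were tubular-like, endothelial-like, immune-like and mesangial-like in the 4 pools. Concentration of this kind was common among the genes tested, whose median highest well held 32.8%, 23.5%, 26.1% and 25.1% of a gene's reads. After thinning, 57.9%, 56.7%, 58.8% and 74.5% of kept wells had no read of any of the 7 members other than Scd2. At least 3 members were found together in 10 of 107, 8 of 203, 8 of 114 and 5 of 188 wells. In empty wells of at least 10000 reads, the share with none of the 7 was 64.7%, 37.1%, 42.9% and 64.1%.

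Across the sums of 4 classes (endothelial-like, mesangial-like, immune-like and tubular-like) in 4 pools, Pearson correlations between members, centred within pool, ranged from -0.51 to 0.86 over 28 pairs, with a median of 0.09. Sqle, Fdft1 and Fasn were the most alike, with r of 0.86 for Sqle and Fdft1, 0.85 for Sqle and Fasn and 0.81 for Fdft1 and Fasn. Insig1 and Hmgcs1 had the lowest value. The 16 sums share pools and depth and often rest on 1 or 2 wells per gene, so these values are a description. Of 7240 genes with a mean of at least 20 CPM, those whose pattern lay nearest to the members' mean included Lage3, Tmem64, Hint2, Pml, Trak1, Slc25a24 and Elp5, with r of 0.87 to 0.92. None of these belongs to the pathway lists.

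**Figure D5:**
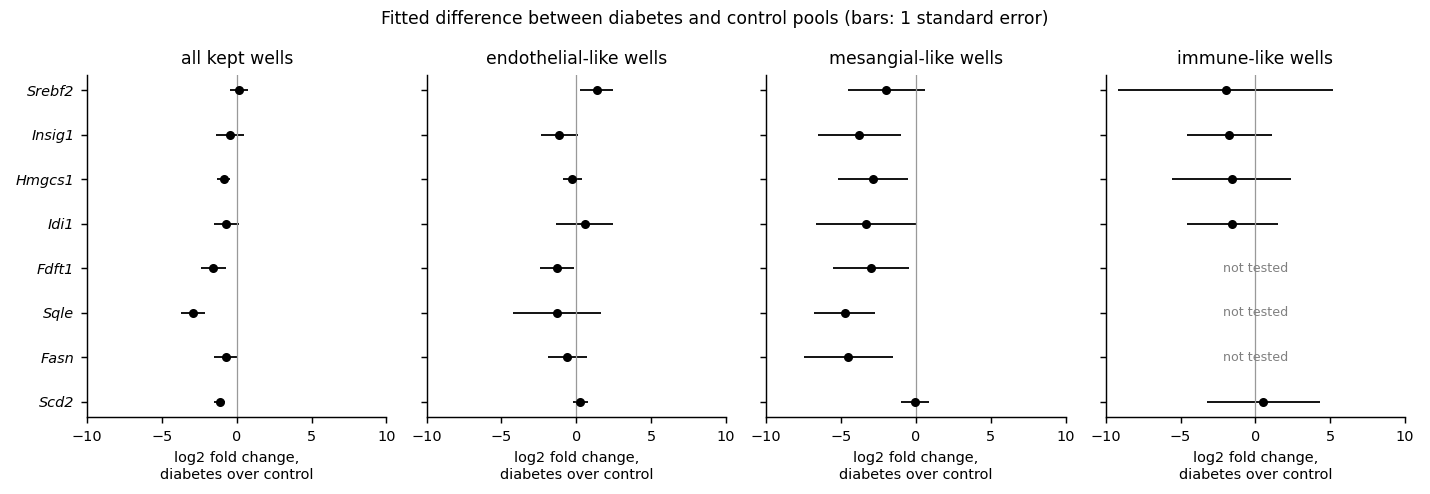
Fitted log2 fold change of diabetes over control pools for each gene in the 4 edgeR fits, with bars of 1 standard error; 3 genes with too few reads in immune-like wells were not tested there. The bars are shortest in all kept wells, where Sqle (-2.92) and Scd2 (-1.13) lie farthest from 0 in units of their error, and none of the values passed the adjusted threshold.

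All 8 members passed the filter on low counts in all kept, endothelial-like and mesangial-like wells. In mesangial-like wells the 8 fitted values were negative, from -4.75 to -0.07, beside a median of -0.43 over all genes tested there and 60.3% of genes below 0. A gene can pass that filter through its control pools alone, and diabetes 1 had 5 mesangial-like wells, in which 6 of the members had fewer than 5 reads. In immune-like wells 5 of the 8 passed (Fasn, Fdft1 and Sqle did not), with fitted values from -1.99 to 0.53 and adjusted p of 1 throughout. Their control pools held 5 wells each, and haemoglobin and other erythroid markers took 19236 CPM in the immune-like wells of diabetes 2.

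The wider pathway was read from 4 lists. Of 22 cholesterol synthesis genes, 22 were tested in all kept wells and 0 passed, with 16 fitted values below and 6 above 0 and a median log2 fold change of -0.14, against 0.05 over all genes. In mesangial-like wells 19 of the 22 were tested and 0 passed, with a median of -2.03 against -0.43. In endothelial-like wells 21 were tested and 0 passed, with a median of -0.27 against 0.07. Of 17 fatty acid synthesis genes, 16 were tested in all kept wells and 0 passed (10 below and 6 above 0, median -0.08). Of 12 genes of SREBP control and sterol uptake, 11 were tested and 0 passed (4 below and 7 above 0, median 0.11). In immune-like wells 9 cholesterol genes, 9 fatty acid genes and 10 genes of SREBP control were tested and 0 passed, with medians of 1.13, 1.85 and 0.84 against 1.04. The list of LXR and cholesterol efflux genes held the LXR receptor genes Nr1h2 and Nr1h3 beside Abca1, Abcg1, Mylip, Apoe, Soat1 and Ch25h. These 8 genes had a median of 1.29 in all kept wells, against 0.05 over all genes. Of them 7 lay above 0, while 47.4% of all genes lay below 0. Their median was 0.50 against 0.07 in endothelial-like wells, -1.30 against -0.43 in mesangial-like wells (5 of 7 tested below 0) and 1.90 against 1.04 in immune-like wells. In all kept, endothelial-like and mesangial-like wells 0 passed, and in immune-like wells 1 passed (Apoe). The members are counted in these lists.

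In endothelial-like wells the non-members of largest fitted difference among those not held by 1 well included Srebf1, which encodes the SREBP factors best known for fatty acid genes. Srebf1 read 31.6 and 20.2 CPM in the control pools against 11.1 and 5.18 in the diabetes pools, which did not overlap, with a log2 fold change of -1.71 (SE 1.26, edgeR adjusted p = 1.00). In mesangial-like wells Soat1, which esterifies cholesterol, and Nr1h3, the sterol-sensing LXR alpha receptor, had fitted values of -2.47 (SE 3.09) and -2.31 (SE 3.16). Without diabetes 1 these were -0.14 and -0.30, and without diabetes 2 they were -10.82 and -9.93. Soat1 read 47.0, 38, 0 and 33.9, and Nr1h3 12.3, 32.2, 0 and 16.3, with overlapping groups in the latter. None of these passed.

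Of the 8 genes of the LXR and efflux list, 1 passed in 1 fit: Apoe, which encodes the apolipoprotein that carries cholesterol out of macrophages and other cells, rose in immune-like wells of the diabetes pools. It read 1436 and 20.8 CPM in the control pools against 4545 and 1641 in the diabetes pools (log2 fold change 4.08, SE 0.89, edgeR adjusted p = 0.0135). The control pools thus lay far apart. The prior degrees of freedom of this fit were infinite for the median gene, for which a gene's own spread between pools does not enter the SE or p. A single well held 100% of the control 1 and 75% of the control 2 reads, and empty wells read 92.6, 230, 601 and 1856. The call was lost in 9 of 15 alternatives, among them leaving out control 2 (log2 fold change 1.57), diabetes 1 (1.88) or diabetes 2 (2.84), DESeq2 (adjusted p = 0.999) and the fit with no replicate block (adjusted p = 0.465), and the adjusted p ranged from 4.87e-06 to 1.00. In all kept wells Apoe read 162 and 187 in control and 1459 and 893 in diabetes pools, with a log2 fold change of 2.77 (SE 0.33, edgeR adjusted p = 0.0853). The 17 immune markers together read 1999 and 392 in the control pools and 20357 and 2190 in the diabetes pools, and their part in this difference was not tested. Abca1, the membrane pump that loads cholesterol onto lipoproteins, read 10.3 and 17.6 in control and 46.0 and 31.6 in diabetes pools (log2 fold change 1.55, SE 0.66, edgeR adjusted p = 0.679).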

How the data were processed

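The authors deposited 1 table of expected counts per experiment, in which 74.1% and 79.3% of the values above 0 were whole. The submitters' processing notes name build mm10 and the tools featureCounts 1.5.1, BWA 0.7.17-r1188, STAR 2.4.2a and cutadapt 1.11. Their order, the annotation, the strand setting, the use of molecular identifiers and the handling of reads shared by similar genes were not given in the sources used. Values of genes with close relatives (Scd2 among the Scd genes, Idi1) are therefore uncertain. Deposited spike-in counts of experiment 1 were not used. Nothing says that repeat pools came from separate litters, so p-values measure only the spread between pools.

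Symbols and coordinates came from GENCODE M21, and 45229 of 45792 identifiers matched. Kept wells had 1 imaged cell, at least 500 genes and at most 30% mitochondrial reads (639 of 833), and total reads on genes of 4763756, 48389746, 6723395 and 37973663 in control 1, control 2, diabetes 1 and diabetes 2. Values were log2(counts per 10000 + 1), scaled within experiment. The 2000 most variable genes outside the pathway lists, 15 components, 15 neighbours and Leiden clustering at resolution 0.8 (scanpy 1.11.5) gave clusters. A cluster took a class name with at least 3 markers in 25% of its wells, most markers among its top 50 genes and 1 in the top 10; these limits were set with the data at hand. Imaging gave the number of cells, so no doublet caller was run.

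Sums per pool were rounded. The test was that of edgeR 4.0.16 under R 4.3.3 (TMM, filterByExpr, robust quasi-likelihood, experiment as replicate block), adjusted by Benjamini-Hochberg over all genes tested, and with DESeq2 1.42.0 as an alternative. The experiment number pairs the pools because the titles place both conditions on the same array. For the median gene, edgeR's prior degrees of freedom were 5.61 in all kept wells, 7.15 in endothelial-like wells and infinite in the mesangial-like and immune-like fits, where a gene's own spread did not enter its p. Tests were limited to classes with 5 or more wells in each pool; tubular-like wells, with 5 to 10, were only described. CPM in the text are not TMM-scaled. Standard errors are the size of the log2 fold change divided by the root of the F statistic. The code was tested on simulated data.

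Named genes were all 8 members, pathway genes that passed in any fit, and in each fit the 2 others of largest absolute log2 fold change among those with at least 20 CPM in the higher condition and no well above 50% of a pool's counts, which left none beyond Apoe in immune-like wells. Some genes that the rule names are not reported here. The members and the lists were chosen with earlier results of these data known. Alternatives covered scaling, filters, thinning, class definitions, free RNA subtraction and each pool left out.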

Additional observations from a re-analysis of the deposited data

Results flagged for a closer look

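Within both experiments, Srebf2 was higher in the diabetes pool in endothelial-like wells and lower in it in mesangial-like wells. It read 3.71 and 25.9 CPM in the control pools against 14.2 and 45.8 in the diabetes pools of endothelial-like wells, and 48.6 and 34.7 in control and 22.1 and 4.61 in diabetes pools of mesangial-like wells. A fit of both classes together, added after the values had been seen, gave a difference of -3.41 between the effects on the log2 scale (SE 3.03, edgeR p = 0.260, adjusted p = 1.00), which did not pass. In that fit 0.0314% of 12756 genes passed. The endothelial-like value of control 1 rests on 6 reads, 66.7% of them in 1 well. In mesangial-like wells of the diabetes pools all Srebf2 reads, 8 and 26 in number, came from 1 well each. After thinning, endothelial-like wells with a Srebf2 read made up 5.13%, 11.1%, 7.35% and 7.14% of wells in control 1, control 2, diabetes 1 and diabetes 2.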

How the results depend on the processing

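The number of members called was 0 under every setting tried in endothelial-like, mesangial-like and immune-like wells. In all kept wells it was 1 (Sqle) under DESeq2 with the replicate block and 0 to 1 when each pool was left out (1 without diabetes 1), and 0 under the other settings. With no replicate block it was 0 in each fit, and the log2 fold change of Insig1 in all kept wells turned to 0.10. For Srebf2 in all kept wells the value turned to -0.48 with thinned wells, -0.04 without each gene's highest well and -0.15 without podocyte-like wells. For Scd2 it turned to -0.04 in endothelial-like wells with no filter on wells and to 0.18 in mesangial-like wells with thinned wells. In immune-like wells Hmgcs1 turned to 0.21 after subtraction of the empty-well profile and Srebf2 to 0.64 with no filter on wells. The cause was not tested. Leaving out 1 pool at a time drops the block and leaves 1 condition with a single pool, which is assumed to vary like the others. It gave, in all kept wells, -2.03 to 0.94 for Insig1, -1.55 to 0.08 for Fasn, -1.95 to 0.32 for Idi1 and -0.21 to 0.45 for Srebf2. In endothelial-like wells it gave -3.38 to 0.75 for Insig1, -0.70 to 1.70 for Idi1, -3.99 to 1.67 for Sqle, -0.25 to 3.19 for Srebf2 and -0.41 to 0.93 for Scd2. In mesangial-like wells it gave -0.66 to 0.51 for Scd2, and, with no change of sign, -12.53 to -3.60 for Sqle, -12.35 to -0.59 for Fdft1 and -10.23 to -1.94 for Idi1. For Sqle in all kept wells it gave -4.66 to -1.27. In immune-like wells it gave -2.67 to 7.41 for Idi1, -0.84 to 0.91 for Hmgcs1 and -6.03 to 8.26 for Srebf2. The difference between podocyte-like and endothelial-like wells in the share with Scd2, a mean of 46.7 percentage points over 3 pools, was 40.2 with at least 2 reads and 20.4 with at least 5. Genes called among all tested in all kept wells numbered 12, against 1 with no replicate block, 590 by DESeq2, 36 with no filter on low counts, 56 with thinned wells, 32 without highest wells, 2 without podocyte-like wells and 0 with at most 15% mitochondrial reads or no filter on wells. Called genes in endothelial-like wells numbered 1, against 97 by DESeq2, in mesangial-like wells 14, against 0 with no replicate block and 1 by marker share, and in immune-like wells 4, against 0 with no replicate block and 13 with no filter on low counts. Leaving out 1 pool at a time gave 10 to 169, 6 to 19, 1 to 33 and 0 to 497 called genes in the 4 fits. Mesangial-like wells numbered 5 in diabetes 1, and immune-like wells 5 in each control pool, which limits those fits.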

Other observations

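Me1, malic enzyme, which supplies reducing power for fatty acid synthesis, was chosen here after its values were seen. In endothelial-like wells it read 0 and 0.179 CPM in the control pools against 13.4 and 14.9 in the diabetes pools, but 1 well held 96.3% and 57.9% of the diabetes reads (edgeR p = 0.0250, adjusted p = 1.00). Acaca, acetyl-CoA carboxylase, also chosen after its values were seen, read 79.6 and 53.2 in control and 15.6 and 16.8 in diabetes pools of endothelial-like wells (log2 fold change -1.98, SE 0.77, edgeR p = 0.0327, adjusted p = 1.00), and 1 well held 61.5% of the diabetes 1 reads.

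Wells imaged with 2 cells, which entered no comparison, held Scd2 at 350, 45.7, 167 and 167 CPM in control 1, control 2, diabetes 1 and diabetes 2, against 156, 106, 72.4 and 133 in wells imaged with 0 cells.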
